A study of Mus musculus with 12 samples.

Results

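Many mouse genes carry no descriptive name. Symbols made of Gm and a number stand for gene models predicted from the genome, and symbols ending in Rik stand for genes first seen as full-length cDNA clones. The transcripts described here are the 68 genes of the deposited table whose symbol in the mouse gene annotation GENCODE M21 has one of these forms. Of these, 49 were Gm symbols and 19 were Rik symbols. The table held 982 genes, of which 972 had a symbol and 10 did not. Another 5 genes with such symbols (Gm28187, Gm20186, Gm9973, Gm7666 and 6030458C11Rik) were left out by the rule that chose the set. The rule names symbols and no measured value, but it was set with earlier results of these data known.

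RNA was measured in 6DT1 cells, a mouse mammary cancer line from an MMTV-Myc tumor, in which Myc is expressed from the mouse mammary tumor virus promoter. The 12 libraries form 4 groups of 3: a scrambled guide RNA (sgControl) and 3 guide RNAs against the coding region of Resf1 (sg1, sg2 and sg3). Resf1 encodes retroelement silencing factor 1. Per the labels, all groups were cultured in puromycin, and each line was seeded in triplicate dishes for RNA. The study's methods describe 3 guides in the largest exon, carried on a Cas9 vector with GFP, and sorted single cells grown into lines. Each group is therefore 1 line, and a guide cannot be told apart from the line that carries it. The p-values set differences against the spread between dishes within lines, pooled over the 4 lines. The level of Resf1 itself was not analysed here, and the guides were not checked against it.

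The Gm and Rik symbols cover several kinds of transcript that behave differently in a sequencing experiment. Some are ordinary protein-coding genes, many of which have since received a name. Long noncoding RNAs are transcribed and spliced but not translated, and may start beside, inside or opposite a coding gene. TEC marks regions with evidence of transcription that still await experimental proof of a gene. Processed pseudogenes, or retrocopies, are copies of spliced mRNAs that were reverse transcribed and pasted back into the genome, so their sequence is close to that of an expressed parent gene. By annotation, 24 members were protein coding, 21 were long noncoding (9 lincRNA, 7 processed transcript, 3 antisense and 2 sense intronic), 7 were TEC and 16 were processed pseudogenes.

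The values are scaled values: estimated reads per gene, divided by 1 size factor per library by the authors. Table sums were between 2069298 and 2713951 per library, and the depth of whole libraries is unknown because the table holds 982 genes only. The members were low for this table, with a median scaled value of 116.4 against 701.6 for the 904 other genes with a symbol. They ranged from 5.412 for Gm28539 to 9350 for Gm4735. Medians were 1357 for pseudogenes, 104.3 for protein-coding members, 87.85 for TEC and 77.66 for long noncoding members. Marker lists gave 4 of 11 epithelial genes in the table (Krt8, Krt18, Krt19 and Cgn), 1 of 7 leukocyte genes (Cd68), and 0 of 5 basal, 0 of 7 fibroblast and 0 of 4 endothelial genes. These markers moved with the lines. All 4 epithelial genes rose with sg1, by 0.33 (Krt19) to 1.16 (Cgn) on the log2 scale, and fell with sg3, from -0.22 (Krt8) to -3.40 (Cgn). With sg2, Krt19 (-0.29) and Cgn (-0.96) fell, and Krt8 (-0.05) and Krt18 (-0.02) were not called. Cd68 rose with sg1 (1.19) and was not called with sg2 (0.28) or sg3 (0.15). The part of these differences in the members' changes was not tested.

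Changes were estimated with limma on log2(scaled value + 1), in 1 fit over all 12 libraries and all 982 genes. Values after ± are standard errors of a log2 fold change, unless SD is stated. A member rose or fell where its Benjamini-Hochberg adjusted p was at most 0.05. All 982 genes had an unadjusted p of 0.0412 or lower when the 3 guides were averaged and set against sgControl, so the table was selected on a contrast of this kind. For the same reason 33 members were higher and 35 lower in the mean of the guides, beside 50.9% and 49.1% of the table, and nothing was read from these counts. The 3 guide comparisons share the same sgControl libraries and use libraries of that contrast. Their adjusted p, taken over the selected genes only, therefore describe these values and are not calibrated error rates.

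With sg1, 25 members rose and 32 fell, that is 36.8% and 47.1% of the 68, beside 50.1% and 39.1% of the table. With sg2, 24 rose and 19 fell, 35.3% and 27.9%, beside 30.2% and 29.4%. With sg3, 23 rose and 28 fell, 33.8% and 41.2%, beside 26.5% and 33.4%. Without sg3 replicate 1, 19 rose and 18 fell with sg3. The median size of the log2 fold change, regardless of sign, was 0.564, 0.600 and 0.544 for the members in the order sg1, sg2 and sg3, beside 0.479, 0.233 and 0.234 for the table. The members also had lower values than the rest of the table, whose genes were selected on a contrast of guides and control. The part of level and of that selection in these sizes was not tested. A fold change depends on the scaling: with libraries scaled to the table total, the median log2 fold change of all genes moved from 0.20 to -0.01 with sg1, from -0.02 to -0.22 with sg2 and from -0.03 to -0.13 with sg3. Under that scaling the sg2 split became 23 higher and 32 lower. No called value of a member changed sign under the 3 other scalings tried.

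**Figure D1:**
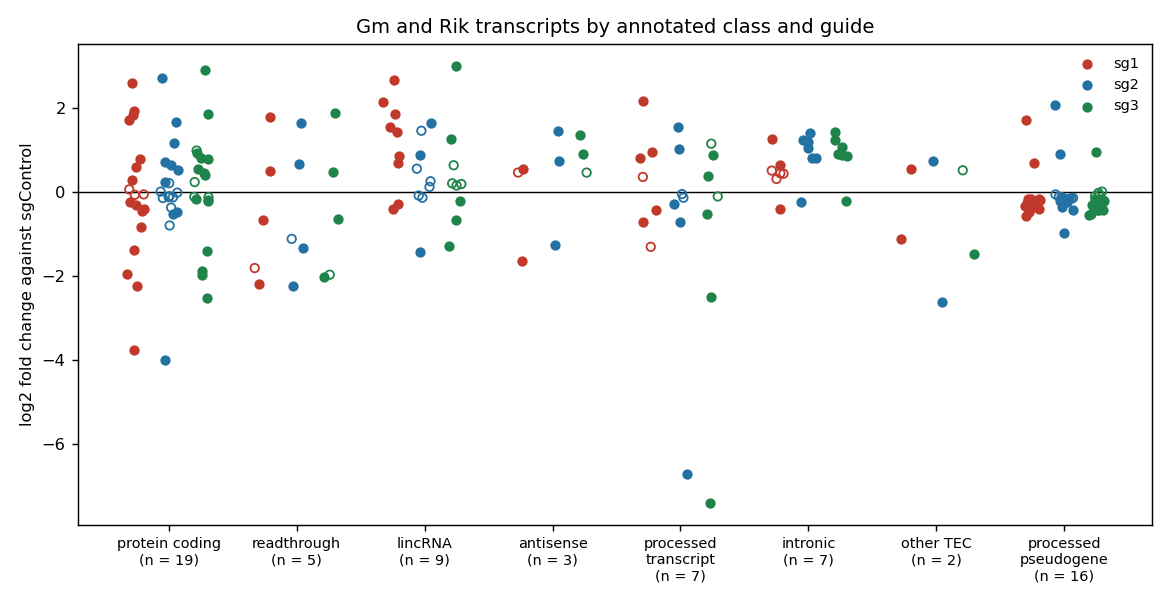
Log2 fold change against sgControl (vertical axis) of each of the 68 members, arranged by annotated class (horizontal axis, number of members in brackets) and coloured by guide. Filled points have an adjusted p of at most 0.05 and open points do not. The 2 lowest points are Gm43305 with sg2 and sg3, and 14 of 16 processed pseudogenes lie below 0 with sg1.

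The 24 protein-coding members comprised 19 genes of their own and 5 readthrough models that join neighbouring genes. Of the 24, 9 rose and 11 fell with sg1, 9 rose and 5 fell with sg2, and 10 rose and 9 fell with sg3. The shares that rose were 37.5%, 37.5% and 41.7%, and those that fell 45.8%, 20.8% and 37.5%. The shares over all genes were 50.1%, 30.2% and 26.5% that rose and 39.1%, 29.4% and 33.4% that fell. Scaled to the table total, the sg2 split was 8 higher and 10 lower. Among the 19 were members that moved in opposite directions between guides, a pair of X-linked genes and copies of zinc finger genes.

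1110002E22Rik on chromosome 3 had scaled values of 468, 528 and 536 in sgControl and 385, 402 and 443 with sg1. It had 809.7, 860.3 and 829.6 with sg2 and 923, 845 and 903 with sg3. The 3 sg1 libraries were therefore below all controls, and the 6 sg2 and sg3 libraries above them. Log2 fold changes were -0.31 ± 0.07, 0.71 ± 0.07 and 0.80 ± 0.07, with limma adjusted p of 0.000778, 4.21e-07 and 7.55e-08. The test that the 3 guides are equal, which compares the means of the edited lines with a spread estimated over all 12 libraries, gave a limma adjusted p of 2.77e-10.

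2810021J22Rik on chromosome 11 was ordered differently. Its values were 78.2, 91.6 and 84.8 in sgControl, 32.96, 25.2 and 38.1 with sg1, 68.95, 58.3 and 55.4 with sg2 and 118, 133 and 124 with sg3. No group overlapped another, and sg3 was the group above the controls. This gave log2 fold changes of -1.39 ± 0.17, -0.48 ± 0.17 and 0.55 ± 0.17 (limma adjusted p = 1.24e-06, 0.0263 and 0.013). The fall with sg2 lost its call when sgControl replicate 2 or 3 or sg2 replicate 2 or 3 was left out, with log2 values from -0.41 to -0.48, and the rise with sg3 lost it when libraries were scaled to the table total (0.45). The guides differed (limma adjusted p = 6.61e-08).

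5031439G07Rik on chromosome 15, known by the synonym mKIAA0930, is one of the better expressed members. Its values were 1689.9, 1686 and 1753 in sgControl and 3032, 2993 and 2826 with sg1, a log2 rise of 0.79 ± 0.06 (limma adjusted p = 2.00e-09). With sg2 it read 1769.8, 1729.6 and 1574 and with sg3 1446, 1608 and 1510.0, log2 differences of -0.02 ± 0.06 and -0.17 ± 0.06 (limma adjusted p = 0.789 and 0.0193). The sg1 libraries stood above all 9 others, and the fall with sg3 was not called without sgControl replicate 3 (-0.15), sg3 replicate 1 (-0.13) or sg3 replicate 3 (-0.16). The guides differed (limma adjusted p = 1.27e-10). The 94 genes of the table on chromosome 15 had a median log2 fold change of 0.619 with sg1, beside 0.20 for the table, and 0.0285 and 0.00147 with sg2 and sg3.

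Both X-linked members were highest in the control line. 3830417A13Rik fell from 118, 94.3 and 126 in sgControl to 26.6, 20.4 and 22.1 with sg1, 3.13, 7.97 and 8.71 with sg2 and 30.3, 24.1 and 36.5 with sg3. All 9 edited libraries were below the lowest control, and the sg2 libraries were the lowest of all. Fold changes on the log2 scale were -2.24 ± 0.30, -3.99 ± 0.30 and -1.87 ± 0.30 (limma adjusted p = 3.55e-06, 6.52e-09 and 7.81e-05), and the guides differed (1.28e-05).

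3830403N18Rik, whose synonym Xlrl names it after the X-linked lymphocyte-regulated gene Xlr, was the second. Its transcript is 96.2% identical to that of Xlr over 1021 bases, and their promoters are 92.9% identical over 283 bases. The first 60 coding bases of each, from GENCODE M21 transcripts, show how close the copies are, with the bases that differ in capitals.

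3830403N18Rik: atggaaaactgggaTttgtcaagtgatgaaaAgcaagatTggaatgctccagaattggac
Xlr: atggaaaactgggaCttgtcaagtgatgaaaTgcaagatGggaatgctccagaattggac

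The scaled values of 3830403N18Rik were 51.4, 31.1 and 47.8 in sgControl, 2.13, 0.974 and 4.43 with sg1, 28.5, 17.2 and 28.00 with sg2 and 10.5, 8.66 and 10.9 with sg3. The sg1 libraries were near 0, and the sg2 libraries did not reach the lowest control. It fell with sg1 by a log2 fold change of -3.75 ± 0.38 and with sg3 by -1.98 ± 0.38 (limma adjusted p = 1.39e-07 and 0.000439). With sg2 the difference was -0.80 ± 0.38 (0.0806, or an adjusted p of 0.0462 with replicate number as a block). Xlr itself, on the same chromosome, moved otherwise. Its values were 293, 229 and 289 in sgControl, 634, 517 and 667 with sg1, 506, 449 and 624 with sg2 and 16.3, 24.1 and 32.8 with sg3. Xlr was thus higher than the controls with sg1 and sg2 (1.16 ± 0.19 and 0.95 ± 0.19) and lower with sg3 (-3.46 ± 0.19). In the sg1 line the copies differed in sign, while both fell in the sg3 line.

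On chromosome 2, 3 members resemble other genes of zinc finger families. Zinc finger proteins of this kind bind DNA, and many carry a domain that recruits repressors to repeats. By GENCODE M21 the 3 members are protein coding, whereas RefSeq lists Gm14412 and Gm14418 as pseudogenes. Gm14412 is closest to Gm14326 (89.6% identity), Gm14139 to Gm14124 (88.8%) and Gm14418 to Gm2026 (94.1%), and 21 coding genes match Gm14418 at 90% or more over at least 50% of its length. Of the 12 values of Gm14418, 1 lay within 0.05 of a whole number of reads, compared with 9 for Gm14412 and 8 for Gm14139.

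Gm14412 rose with every guide. Its values were 13.8, 10.9 and 5.72 in sgControl, 71.2, 43.6 and 77.3 with sg1, 24.3, 14.9 and 32.1 with sg2 and 22.1, 15.95 and 20.1 with sg3. Its log2 fold changes were 2.58 ± 0.34, 1.17 ± 0.34 and 0.94 ± 0.34 (limma adjusted p = 2.92e-06, 0.009 and 0.0274). The sg1 libraries were the highest, the guides differed (0.000614), and the sg3 call was lost without sgControl replicate 3 (0.61), sg3 replicate 1 (0.84) or sg3 replicate 3 (0.91), as the sg2 call was without sg2 replicate 3 (0.93). Gm14418 rose with sg3 from 89.5, 80.3 and 124 to 350.0, 315 and 384, a log2 fold change of 1.85 ± 0.18 (limma adjusted p = 1.54e-07). It rose less with sg2 (0.65 ± 0.18) and read -0.07 ± 0.18 with sg1, which was not called. Gm14139 took the reverse course. It fell with sg3 from 59.9, 44.4 and 53.4 to 10.5, 6.74 and 7.84 (-2.53 ± 0.24, limma adjusted p = 1.40e-07) and with sg1 by -0.83 ± 0.24, and its sg2 value of -0.37 ± 0.24 was not called. Against sg2, the sg3 line was higher for Gm14418 (1.20 ± 0.18) and lower for Gm14139 (-2.15 ± 0.24).

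2310030G06Rik and Gm10401 rose with every guide. 2310030G06Rik, on chromosome 9, had 148, 174 and 178 in sgControl, 208, 190.1 and 207 with sg1, 249, 230.0 and 241 with sg2 and 184, 242 and 259 with sg3. The lowest edited library of each guide was above the highest control, with log2 fold changes of 0.28 ± 0.12, 0.53 ± 0.12 and 0.44 ± 0.12 (limma adjusted p = 0.0434, 0.00176 and 0.00653). The sg1 rise was the least secure, at 0.06 when scaled to the table total and uncalled there, with the 2 other scalings (0.12 and 0.14) and without sgControl replicate 1 (0.19), sg1 replicate 1 (0.25), sg1 replicate 3 (0.26), sg2 replicate 1 or sg2 replicate 3 (0.28 each). Its neighbour Dixdc1, 174 bases away on the same strand, a regulator of Wnt signalling, had log2 fold changes of 1.09 ± 0.10, -0.08 ± 0.10 and 1.17 ± 0.10.

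Gm10401 was at or under 3 estimated reads in all 3 control libraries. Its scaled values were 1.74, 0.550 and 0.186 in sgControl, 12.1, 6.82 and 1.14 with sg1, 7.81, 8.62 and 15.8 with sg2 and 15.9, 7.84 and 13.2 with sg3. Set against that floor of 3 reads per library, its group means were at least 2.36-fold higher with sg1, 3.78-fold with sg2 and 4.34-fold with sg3 (limma adjusted p = 0.0112, 0.00141 and 0.000923). In sg1, 1 library lay within the control range, and without sg1 replicate 1 the sg1 value was not called (limma adjusted p = 0.0781), and the mean of the other two was at least 1.40-fold higher. The gene overlaps Sppl3 on the opposite strand, and 2 of its 12 values were whole reads.

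4933415A04Rik and the gene next to it gave near-equal fold changes. 4933415A04Rik lies 43 bases from Ccnjl, a cyclin J-like gene, on the same strand of chromosome 11. It fell from 37.3, 35.4 and 34.3 in sgControl to 13.8, 4.85 and 8.84 with sg1 and 13.97, 13.5 and 10.9 with sg3, and read 31.3, 36.8 and 28.8 with sg2. Its log2 fold changes were -1.95 ± 0.31, -0.15 ± 0.31 and -1.42 ± 0.31, those of Ccnjl -2.02 ± 0.12, -0.13 ± 0.12 and -1.35 ± 0.12. For both genes the sg1 and sg3 values were called and the sg2 value was not.

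Gm2115, listed with the synonym Ctxnd1, rose with sg1, from 108, 157 and 81.99 to 419, 445 and 423 (1.93 ± 0.19, limma adjusted p = 7.15e-08). With sg2 and sg3 it read 0.01 ± 0.19 and 0.23 ± 0.19, neither called, and the guides differed (7.24e-08). Gm1673 rose with sg1 (1.72 ± 0.43) and sg2 (1.65 ± 0.43), and 9330182L06Rik with sg1 (0.59 ± 0.16) and sg3 (0.77 ± 0.16). The largest change of the remaining 5 genes of this class was the fall of 1190002N15Rik with sg2, at -0.53 ± 0.08. 2210016F16Rik rose with sg2 (0.24 ± 0.06) and sg3 (0.41 ± 0.06), and the sg2 call was lost when scaled to the table total (0.03). 2310022B05Rik and 3110082I17Rik fell with sg1 (-0.41 ± 0.08 and -0.46 ± 0.08), and their smaller falls with sg3 (-0.19 ± 0.08 and -0.22 ± 0.08) were lost without single libraries, among them sg3 replicate 1 (-0.14 and -0.17). Gm4737, a copy of Ahcy, is described with the retrocopies.

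**Figure D2:**
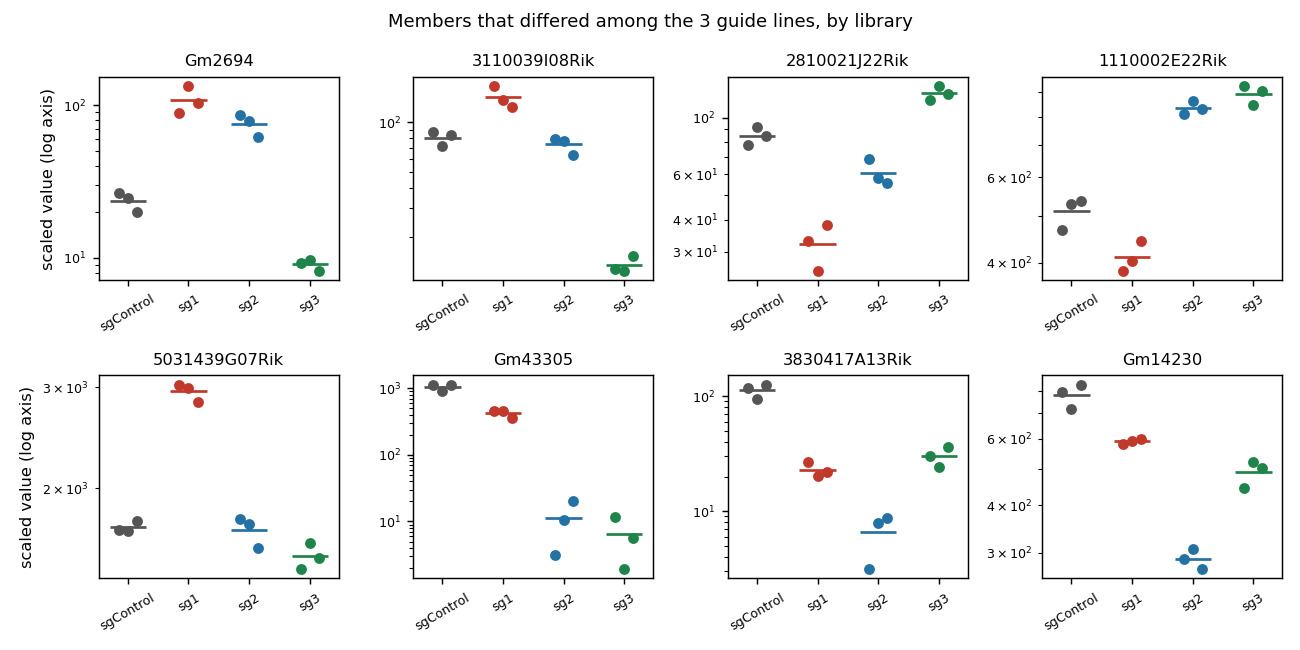
Scaled value (vertical axis, log scale) in each library (points) and group mean (bars) for 8 members in sgControl, sg1, sg2 and sg3. Gm2694 is above the controls with sg1 and sg2 and below them with sg3, and Gm43305 lies between 1.93 and 20.5 in the sg2 and sg3 lines.

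The 5 readthrough models share exons with the genes they join, so reads of these exons cannot be assigned to either. Of their values, 13.3% lay within 0.05 of whole reads, where the tolerance itself spans 10% of possible remainders, beside 75.0% for the other 19 coding members. Gm20498 joins Synj2bp, a mitochondrial outer membrane protein gene, with Cox16, which serves assembly of cytochrome c oxidase. It rose from 97.6, 112 and 86.6 to 127, 136 and 153 with sg1, 139.6, 187 and 144 with sg2 and 145, 139.6 and 128 with sg3 (0.49 ± 0.14, 0.66 ± 0.14 and 0.48 ± 0.14, limma adjusted p = 0.00386, 0.000868 and 0.0091). All 9 edited libraries were above the controls, and scaled to the table total the values with sg1 (0.28) and sg3 (0.38) were not called. Gm27029, which joins Aarsd1 and Ptges3l, fell from 74.9, 66.1 and 91.8 to 48.2, 51.8 and 45.3 with sg1, 27.5, 31.6 and 30.5 with sg2 and 48.95, 51.4 and 46.8 with sg3 (-0.66 ± 0.18, -1.34 ± 0.18 and -0.64 ± 0.18, limma adjusted p = 0.00253, 9.08e-06 and 0.00653). The sg2 line was lowest, and the guides differed (0.0024).

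For the 3 low readthrough models, 1 control library stood apart. Gm20708 (Syngr2 and Afmid) read 24.6, 5.26 and 2.75 in the 3 controls, Gm28539 (2510002D24Rik and the histone chaperone gene Hira) 25.8, 8.86 and 9.01, and Gm49361 (Xpo4 and the Hippo kinase gene Lats2) 48.3, 2.73 and 2.93. In each, sgControl replicate 1 was the highest. Gm20708 rose to 27.9, 35.7 and 22.3 with sg1, 33.1, 27.5 and 18.02 with sg2 and 29.1, 28.5 and 32.5 with sg3, log2 values of 1.79 ± 0.50, 1.65 ± 0.50 and 1.88 ± 0.50 (limma adjusted p = 0.00321, 0.0107 and 0.00495), and sgControl replicate 1 lay within the range of the edited lines. Without sgControl replicate 3 its sg2 value was 1.06 and not called. Gm28539 fell to 4.40, 3.28 and 0.207 with sg1, 1.72, 3.02 and 1.31 with sg2 and 1.59, 2.52 and 3.22 with sg3 (-2.19 ± 0.64, -2.24 ± 0.64 and -2.04 ± 0.64, limma adjusted p = 0.00433, 0.0076 and 0.0133), and without sgControl replicate 1 the sg3 value was -1.56 and not called. Gm49361 was the 1 member called with no single guide, and read 6.53, 0.741 and 0.274 with sg1, 2.701, 3.21 and 3.54 with sg2 and 0.211, 2.20 and 2.11 with sg3. Its log2 fold changes were -1.81 ± 0.90 with sg1 and -1.12 ± 0.90 with sg2. The sg3 libraries were at or under 3 estimated reads, so its control mean was at least 5.91-fold higher than with sg3 (limma adjusted p = 0.0682), a bound that rests on sgControl replicate 1, since the other two controls were at about 3 estimated reads. Gm49361 was called with sg1 and sg3 when scaled to the table total and without sgControl replicate 2 or 3, and with sg1 without sg1 replicate 1 (sg1 values of -1.93 to -2.59).

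Of the 21 long noncoding members, 12 rose and 5 fell with sg1, 8 rose and 5 fell with sg2, and 8 rose and 6 fell with sg3. The shares that rose were 57.1%, 38.1% and 38.1%, beside 50.1%, 30.2% and 26.5% of the table, and those that fell 23.8%, 23.8% and 28.6%, beside 39.1%, 29.4% and 33.4%. Their median log2 fold changes were 0.692, 0.253 and 0.381, beside 0.20, -0.02 and -0.03 for the table. Among the 9 lincRNAs, 7 rose and 2 fell with sg1, with a median of 1.41. The corresponding counts were 2 and 1 with sg2 and 2 and 3 with sg3, with medians of 0.253 and 0.188. Of the 9 lincRNAs, 77.8%, 22.2% and 22.2% rose and 22.2%, 11.1% and 33.3% fell, to be read against the same table shares. Only 1 lincRNA rose with sg3 without sgControl replicate 2 or 3 or sg3 replicate 3.

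Gm2694 is a lincRNA on chromosome 8 whose gene overlaps that of Cbln1, a secreted synaptic organizer, on the opposite strand. Its values were 26.5, 24.5 and 20.02 in sgControl, 89.3, 133 and 104 with sg1, 85.7, 78.7 and 61.9 with sg2 and 9.31, 9.63 and 8.21 with sg3. The sg1 and sg2 libraries were all above the controls and the sg3 libraries all below. The log2 fold changes were 2.14 ± 0.22, 1.63 ± 0.22 and -1.29 ± 0.22 (limma adjusted p = 1.31e-07, 9.54e-06 and 0.000118). The sg3 line was lower than the sg2 line (-2.92 ± 0.22, limma adjusted p = 5.19e-09), and the guides differed (2.67e-10).

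Gm14230 fell in every edited line. It lies on chromosome 2 beside Tgif2, a homeobox repressor gene, on the opposite strand, with 115 bases between their annotated starts. Its values were 794, 718 and 831 in sgControl, 581, 593 and 599 with sg1, 289, 307 and 272 with sg2 and 443, 519.8 and 503 with sg3. No group overlapped another, and sg2 was the lowest. The log2 fold changes were -0.40 ± 0.08, -1.43 ± 0.08 and -0.68 ± 0.08 (limma adjusted p = 0.000175, 8.68e-11 and 1.82e-06), and the guides differed (5.74e-09). Tgif2 had log2 fold changes of -0.24 ± 0.09, -0.16 ± 0.09 and -0.26 ± 0.09, of which the sg1 and sg3 values were called, and its guides were not called as different (0.576).

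Several lincRNAs were high in the sg1 line. G930009F23Rik rose from 54.04, 53.5 and 52.4 to 164, 155 and 150.3 (1.53 ± 0.17, limma adjusted p = 3.11e-07), and read 0.12 ± 0.17 and 0.20 ± 0.17 with sg2 and sg3. Gm36026, also on chromosome 15, starts 270 bases from the start of Krt8, a keratin gene of simple epithelia, on the opposite strand, and 6.12% of its exonic bases overlap Krt8. Gm36026 rose with sg1 from 25.6, 11.8 and 19.1 to 63.9, 70.9 and 66.4 (1.84 ± 0.29), where Krt8 rose by 1.10 ± 0.05. With sg2 and sg3, Gm36026 read 0.55 ± 0.29 and 0.63 ± 0.29 and Krt8 -0.05 ± 0.05 and -0.22 ± 0.05. The strand setting of the counting is not given in the sources used here, so reads in the shared stretch of such overlapping pairs cannot be told apart.

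Gm36635 rose with sg1 (0.86 ± 0.12) and read 0.25 ± 0.12 with sg2, where its adjusted p was 0.0370 with the replicate block, and its neighbour Ckb, the brain-type creatine kinase gene, fell with sg1 (-1.29 ± 0.13) and sg2 (-0.45 ± 0.13) and read -0.01 ± 0.13 with sg3. Gm47015 rose with sg1 and sg3 (1.41 ± 0.23 and 1.27 ± 0.23) and was apart from sg2, at -0.09 ± 0.23 (guides compared, limma adjusted p = 0.00012). Without sgControl replicate 2 the sg2 value of Gm47015 was -0.40 and called (limma adjusted p = 0.0255), and 2 lincRNAs rather than 1 fell with sg2. 5930430L01Rik rose with sg1 and sg2 (0.69 ± 0.16 and 0.88 ± 0.16) and read 0.19 ± 0.16 with sg3. Gm48795 had one control at 0.0682 and the other two at 11.9 and 6.90, and it rose with sg1 to 38.96, 13.3 and 47.3 and with sg3 to 58.5, 26.6 and 32.8. Both calls were lost without sgControl replicate 2 (3.02 and 3.36) or sgControl replicate 3 (1.58 and 1.92), and each was lost without replicate 1 or 3 of its own line (2.46 and 2.33 with sg1, 2.68 and 3.08 with sg3). Gm47882, with 2 of 12 values at whole reads, fell with sg1 (-0.28 ± 0.07) and sg3 (-0.23 ± 0.07, or -0.16 and not called without sg3 replicate 1).

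Of the 3 antisense members, Gm13613 rose with each guide. It lies opposite Abcb11, the bile salt export pump gene, on chromosome 2, and read 247, 242 and 286 in sgControl, 401, 333 and 407 with sg1, 425, 404 and 449 with sg2 and 466, 514 and 469 with sg3. All 9 edited libraries were above the controls. The log2 fold changes were 0.55 ± 0.09, 0.72 ± 0.09 and 0.90 ± 0.09 (limma adjusted p = 3.65e-05, 6.32e-06 and 3.76e-07), and the guides differed (0.0092). Gm15910, opposite Msrb3, a methionine sulfoxide reductase gene, shares no exonic base with it. Gm15910 fell with sg1 and sg2, from 36.4, 58.04 and 41.9 to 18.1, 10.7 and 13.3 with sg1 and 16.7, 21.9 and 15.7 with sg2 (-1.63 ± 0.26 and -1.27 ± 0.26). It read 68.7, 55.8 and 61.1 with sg3 (0.46 ± 0.26, not called), and the guides differed (1.79e-06). Gm49179 lies opposite Dzip1, a cilium gene, and rose with sg2 and sg3 (1.44 ± 0.29 and 1.34 ± 0.29), as Dzip1 did (0.92 ± 0.12 and 1.05 ± 0.12). With sg1 their values were 0.46 ± 0.29 and -0.09 ± 0.12, neither called, and 3 of the 12 values of Gm49179 were whole reads.

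3110039I08Rik is a processed transcript on chromosome 9 that spans the hairpins of Mir100, Mirlet7a-2 and Mir125b-1 on its own strand. MicroRNAs pair with target mRNAs mainly through their seed, bases 2 to 8, and the let-7 and miR-125 families are known for roles in growth and differentiation. A mature sequence of each hairpin, at its RefSeq position (GRCm38.p6), is shown because the gene is known as their host, with the seed in capitals. For Mirlet7a-2 it is the 3p sequence, whose seed no other mature name carries, so it is not a seed that the let-7 family shares. Mature RNAs of this length were not measured in these libraries.

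mmu-miR-100-5p, chr9:41531437-41531458, plus strand: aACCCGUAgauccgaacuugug
mmu-let-7a-2-3p, chr9:41536777-41536797, plus strand: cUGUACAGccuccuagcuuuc
mmu-miR-125b-5p, chr9:41581940-41581961, plus strand: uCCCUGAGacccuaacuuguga

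The miR-100-5p seed is shared with miR-99a-5p and miR-99b-5p, and the miR-125b-5p seed with 4 other mature names, among them miR-125a-5p. The host 3110039I08Rik read 87.4, 71.6 and 83.9 in sgControl, 166, 137 and 125 with sg1, 79.4, 77.7 and 63.6 with sg2 and 12.8, 12.5 and 15.5 with sg3. The sg1 libraries were above the controls, the sg2 libraries overlapped them and the sg3 libraries were far below. It rose with sg1 by 0.80 ± 0.18 and fell with sg3 by a log2 fold change of -2.49 ± 0.18 (limma adjusted p = 0.00047 and 2.42e-09). With sg2 it read -0.14 ± 0.18, which was not called. The equality of the guides had the smallest p of any member (limma adjusted p = 4.83e-11).

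The widest change of the set was in Gm43305, a processed transcript on chromosome 14. Its values were 1111, 923 and 1128 in sgControl and 461, 455 and 363 with sg1. With sg2 they were 3.17, 10.6 and 20.5 and with sg3 11.7, 1.93 and 5.58. The sg1 libraries were all below the controls, and all sg2 and sg3 libraries were below every sg1 library. The log2 fold changes were -6.70 ± 0.59 with sg2 and -7.39 ± 0.59 with sg3 (limma adjusted p = 4.51e-06 and 1.82e-06). With sg1 the value was -1.31 ± 0.59 (0.056), which passed the threshold under 7 of the alternatives, including the medians of ratios (-1.46) and a pseudocount of 5 (-1.30). This standard error pools the spread of all lines, and the dishes spread widest, relative to their level, with sg2 and sg3. The guides differed (4.78e-06). The promoter that RefSeq gives for Gm43305 resembles those of 4 other unnamed genes (Gm42031, Gm40814, Gm33887 and Gm40843) at 89.0% to 100% identity over 121 to 297 bases, and 4 of its 12 values were whole reads. Its neighbour Oxa1l, a mitochondrial membrane insertase gene 63378 bases away, read -0.34 ± 0.07, -0.15 ± 0.07 and -0.20 ± 0.07.

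Of the other 5 processed transcripts, C630043F03Rik fell with each guide, from 68.8, 58.04 and 57.2 to 31.9, 39.8 and 39.8 with sg1, 43.9, 29.9 and 37.5 with sg2 and 41.9, 42.4 and 41.97 with sg3 (-0.71 ± 0.20, -0.72 ± 0.20 and -0.53 ± 0.20, limma adjusted p = 0.00282, 0.00524 and 0.0284). All its edited libraries were below the controls, and the sg3 value lost its call without sgControl replicate 1 (-0.44), sg3 replicate 1 or sg3 replicate 3 (-0.53 each). 1110038B12Rik, the best expressed of the class, fell with sg1 and sg2 (-0.42 ± 0.06 and -0.29 ± 0.06). 2610203C22Rik rose with sg2 and sg3 (1.01 ± 0.18 and 0.87 ± 0.18), and 1810059H22Rik with sg1 and sg2 (2.16 ± 0.49 and 1.54 ± 0.49), the latter not called without sgControl replicate 1 (0.81) or sg2 replicate 2 (1.33). Gm13415 rose with sg1 (0.94 ± 0.14) and, less securely, with sg3 (0.38 ± 0.14). The sg3 call of Gm13415 was lost when scaled to the table total (0.28) and without sgControl replicate 2 (0.36) or 3 (0.29) or sg3 replicate 1 (0.37) or 3 (0.35). Psd4, the neighbour of Gm13415, rose with sg1 (1.68 ± 0.10) and sg2 (1.67 ± 0.10), where Gm13415 read -0.05 ± 0.14.

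Of the members annotated as sense intronic or TEC, 7 lay inside an intron of a protein-coding gene, on its strand: 2 sense intronic (Gm37529 in Rabgap1l and Gm43696 in Lrig2) and 5 TEC (Gm37354 and Gm38157 in Dst, Gm38043 in Abl2, Gm38056 in Plcl1 and Gm43323 in Rbm47). Up to 10% of a member's exonic bases could be shared with exons of the host, and Gm43323 shared 6.48% with Rbm47. The processed transcript 1810059H22Rik also lies in an intron, of Gm42791, and is described with the processed transcripts. In a total RNA library, unspliced transcripts of a host gene can contribute reads to such regions. Of the 7, 2 rose and 1 fell with sg1, and 6 rose and 1 fell with sg2 and again with sg3. The shares that rose were 28.6%, 85.7% and 85.7%, beside 50.1%, 30.2% and 26.5% of the table, and 14.3% fell each time, beside 39.1%, 29.4% and 33.4%. Their median log2 fold changes were 0.445, 1.05 and 0.911, beside 0.20, -0.02 and -0.03. The sg1 count of 2 was 1 under each of the 3 other scalings and without sgControl replicate 2, any 1 sg1 library, sg2 replicate 1 or sg3 replicate 3, and was 4 without both sg2 replicate 2 and sg3 replicate 1. Gm38056 was the 1 that fell each time, and it alone of the 7 had no value at whole reads. Of the 7 TEC members, whether in an intron or not, 2 rose and 2 fell with sg1, 5 rose and 2 fell with sg2, and 4 rose and 2 fell with sg3. The shares that rose were 28.6%, 71.4% and 57.1%, and 28.6% fell each time, beside the same shares of the table. With sg1 the split became 0 and 2 under each of the 3 other scalings, and 0 to 2 rose and 1 to 2 fell without single libraries. Those that fell numbered 1 to 2 with sg2 and 0 to 2 with sg3 without single libraries, and without sg3 replicate 1 there were 2 that rose with sg3.

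The rise of the other 6 was uneven between dishes. Their summed scaled value was 251, 248 and 217 in sgControl, 322, 348 and 326 with sg1, 389, 643 and 443 with sg2, and 803, 342 and 379 with sg3. The control libraries were the lowest 3, and each guide had all its libraries above them. All 6 members were highest within their group in sg2 replicate 2 and in sg3 replicate 1, whereas the highest control and sg1 libraries were mixed. The long noncoding genes Airn and Pvt1 were also highest in sg3 replicate 1, at 356 and 456 beside 171 to 216 and 267 to 286 in the other sg3 libraries, and in sg2 replicate 2, at 239 and 367 beside 202 to 222 and 283 in each of the other sg2 libraries. Within sg3, replicate 1 also held the highest Malat1 (94645) and the lowest Rpph1 (80458), whereas within sg2, replicate 2 held the lowest Malat1 (62617) and the highest Rpph1 (128059). The part of RNA quality or unspliced RNA in this was not tested. Without sg3 replicate 1, 3 of the 6 were called with sg3 and their median log2 fold change was 0.602 instead of 0.991. The sg2 call of Gm43696 was lost in 4 of the fits with 1 library left out. With both libraries left out, an alternative chosen after seeing the data, 6 of 6 rose with sg2 and 4 of 6 with sg3, and the medians were 0.797 and 0.602.

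**Figure D3:**
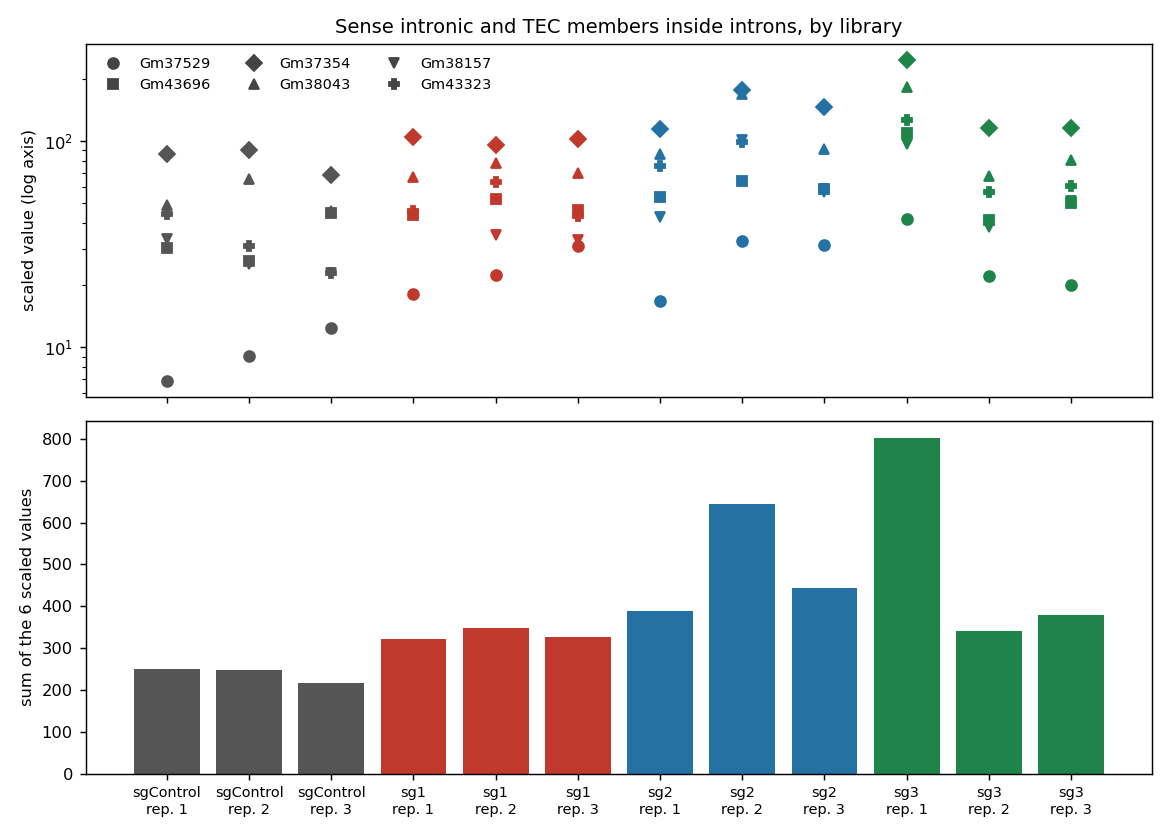
Scaled values of 6 sense intronic or TEC members inside introns, by library (horizontal axis), for each member (upper panel, log axis) and summed (lower panel). The sums stand between 217 and 251 in sgControl and reach 643 in sg2 replicate 2 and 803 in sg3 replicate 1.

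Gm37529, inside Rabgap1l, a gene of a Rab GTPase-activating protein, rose with each guide. Its values were 6.88, 9.07 and 12.4 in sgControl, 18.1, 22.3 and 30.9 with sg1, 16.7, 32.9 and 31.4 with sg2 and 41.9, 22.1 and 20.1 with sg3. All edited libraries were above the controls (1.25 ± 0.35, 1.40 ± 0.35 and 1.43 ± 0.35, limma adjusted p = 0.00343, 0.00325 and 0.00283). Gm43323, inside Rbm47, which encodes an RNA-binding protein, read 44.2, 30.8 and 22.9 in sgControl, 45.7, 63.4 and 43.1 with sg1, 75.2, 98.6 and 58.8 with sg2 and 126, 56.8 and 60.2 with sg3. The sg2 and sg3 libraries were above the controls, and 1 sg1 library was not (0.65 ± 0.30, 1.24 ± 0.30 and 1.24 ± 0.30, limma adjusted p = 0.0486, 0.00222 and 0.0024). The sg1 value of Gm43323 was not called under any other scaling (0.44 to 0.52), nor without any 1 of 7 libraries (0.43 to 0.76).

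Gm38056, inside Plcl1, had the highest level of the class and fell by little. Its values were 858, 964 and 1015 in sgControl, 638, 741 and 769 with sg1, 736, 877 and 789.9 with sg2 and 711, 820.5 and 895 with sg3, and the sg2 and sg3 groups overlapped the controls. The log2 fold changes were -0.40 ± 0.10, -0.24 ± 0.10 and -0.23 ± 0.10 (limma adjusted p = 0.000884, 0.0402 and 0.0481). The sg2 and sg3 calls were lost without single libraries, the values then lying from -0.18 to -0.23 with sg2 and from -0.14 to -0.24 with sg3.

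The remaining 2 TEC genes lie outside such introns. Gm49410, on chromosome 15 and 16697 bases from Myh9, the nonmuscle myosin heavy chain gene, was low and fell. Its values were 12.8, 11.8 and 14.3 in sgControl, 4.25, 6.79 and 5.52 with sg1, 1.04, 1.99 and 0.872 with sg2 and 8.15, 3.85 and 1.82 with sg3. The sg2 libraries were at or under 3 estimated reads, so its control mean was at least 4.45-fold higher than with sg2 (limma adjusted p = 0.000361). The falls with sg1 (-1.11 ± 0.51, 0.0485) and sg3 (-1.48 ± 0.51, 0.0209) were weaker: the sg1 value was not called without any of 8 single libraries (-0.97 to -1.25) or with the replicate block (0.0610), and the sg3 value was not called without sgControl replicate 3 (-1.41) or sg3 replicate 3 (-1.06). The guides differed (0.0303). Myh9 rose with sg1 (1.21 ± 0.06) and read -0.07 ± 0.06 and -0.06 ± 0.06 with sg2 and sg3. Gm37621, opposite Ppp2r3a, rose with sg1 and sg2 (0.54 ± 0.22 and 0.73 ± 0.22). Its sg1 value was not called under any other scaling (0.32 to 0.40) or without sgControl replicate 1 (0.45), sg1 replicate 1 (0.55) or sg1 replicate 2 (0.48).

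Of the 16 processed pseudogenes, 2 rose and 14 fell with sg1, 2 rose and 7 fell with sg2, and 1 rose and 11 fell with sg3. The shares that fell were 87.5%, 43.8% and 68.8%, beside 39.1%, 29.4% and 33.4% of the table, and those that rose 12.5%, 12.5% and 6.25%, beside 50.1%, 30.2% and 26.5%. Their median log2 fold changes were -0.244, -0.154 and -0.214, beside 0.20, -0.02 and -0.03. The sg2 count was the least stable: with replicate number as a block 11 rather than 7 fell, without sgControl replicate 1 or 2 there were 4 and 3, and with libraries scaled by the median of ratios or to the table total there were 12 and 14. Without sg3 replicate 1, 7 rather than 11 fell with sg3.

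Each pseudogene matched a protein-coding transcript at 93.4% identity or more. The closest genes included these of the ribosome and of translation: Rplp0 (Gm8730), Rpl18 (Gm13436), Rpl15 (Gm4294), Rpl37a (Gm4149), Rpl22l1 (Gm15421), Fau (Gm9843), which encodes a ribosomal protein fused to a ubiquitin-like peptide, and the elongation factor gene Eef2 (Gm13050). The others were the glycolytic genes Eno1b (Gm4735) and Gpi1 (Gm1840), Pabpc4 (Gm10110), Rnps1 (Gm9825), Atp5g1 (Gm10039), Atpaf1 (Gm14117), Arpc5 (Gm16372), Lcp1 (Gm6201) and Kdm2b (Gm12397). Of these genes, 5 (Pabpc4, Rpl18, Atpaf1, Lcp1 and Rplp0) are in the table. Stretches of 60 coding bases aligned with the pseudogene are shown for 3 of the pairs, with differing bases in capitals, since a read inside an identical stretch has 2 possible origins.

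Gm6201: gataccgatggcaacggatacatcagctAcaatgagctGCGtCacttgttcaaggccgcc
Lcp1, coding bases 64 to 123: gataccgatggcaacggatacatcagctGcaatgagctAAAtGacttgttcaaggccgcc
Gm10110: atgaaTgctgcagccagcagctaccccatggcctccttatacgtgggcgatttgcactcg
Pabpc4, coding bases 1 to 60: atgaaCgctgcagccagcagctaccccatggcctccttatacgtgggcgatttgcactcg
Gm14117: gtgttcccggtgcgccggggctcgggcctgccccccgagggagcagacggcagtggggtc
Atpaf1, coding bases 205 to 264: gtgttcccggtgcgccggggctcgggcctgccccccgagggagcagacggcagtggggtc

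The windows held 5, 1 and 0 differences. Over the whole alignments, identity was 93.7% for Gm6201, 98.8% for Gm10110 and 100% for Gm14117.

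The values of the pseudogenes were mostly fractional. Of them, 10.9% lay within 0.05 of whole reads, compared with 77.8% for lincRNAs, 70.2% for processed transcripts and 83.3% for the 7 sense intronic or TEC members in introns. The classes also differed in level, with median scaled values of 1357 for pseudogenes, 85.95 for lincRNAs, 77.66 for processed transcripts and 60.45 for those 7. Gm16372, the lowest pseudogene with a mean of 33.31, had 1 whole value of 12. Among members with high means, Gm38056 (818) had 0 of 12 and 5031439G07Rik (1968) had 12 of 12. The coding member Gm4737 (4741), whose transcript is 99.7% identical to that of Ahcy, the adenosylhomocysteinase gene of the methyl cycle, had 1.

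**Figure D4:**
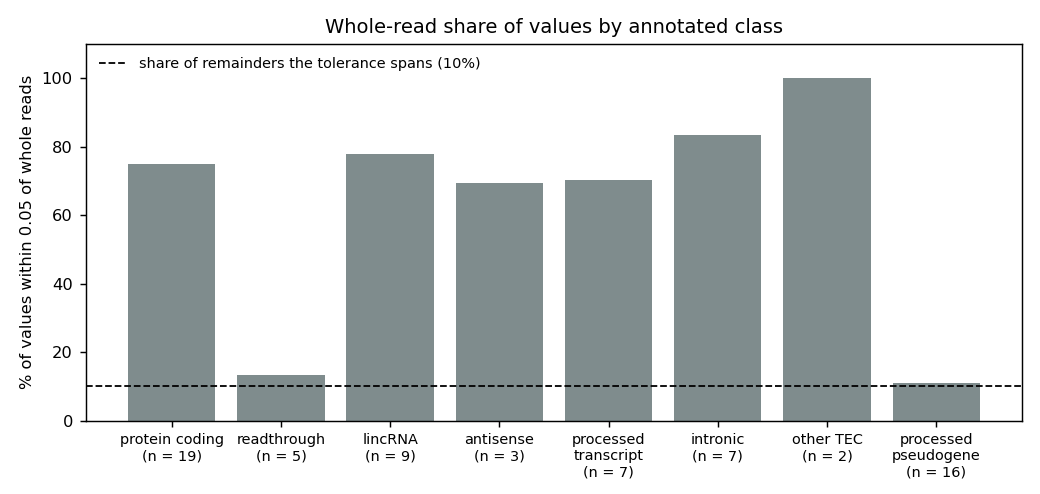
Share of values within 0.05 of a whole number of estimated reads (vertical axis, percent) by annotated class (horizontal axis, number of members in brackets), over 12 libraries. Processed pseudogenes (10.9%) and readthrough models (13.3%) lie near the dashed line at 10%, the share of remainders that the tolerance spans.

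Where the closest gene was in the table, a pseudogene and that gene gave like changes. Gm6201 read 18.7, 23.6 and 32.5 in sgControl, 84.3, 87.5 and 75.1 with sg1, 105, 97.9 and 115 with sg2 and 32.6, 24.1 and 17.4 with sg3. It was higher in all sg1 and sg2 libraries than in any control, and overlapped the controls with sg3. Its log2 fold changes were 1.71 ± 0.23, 2.07 ± 0.23 and -0.02 ± 0.23 (limma adjusted p = 3.66e-06, 1.21e-06 and 0.937). Those of Lcp1, the actin-bundling plastin gene, were 1.61 ± 0.06, 1.97 ± 0.06 and -0.13 ± 0.06, at levels of 1593 ± 124 (SD, n = 3) in sgControl and 6250.3 ± 216 with sg2.

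Gm14117 fell with sg1 and sg2, from 219, 198 and 199.7 to 161, 163 and 142 with sg1 and 107, 102 and 101 with sg2, and read 195, 215 and 209 with sg3. Its log2 fold changes were -0.40 ± 0.11, -0.98 ± 0.11 and 0.01 ± 0.11, and those of Atpaf1, an assembly factor gene of the mitochondrial ATP synthase, -0.30 ± 0.09, -0.97 ± 0.09 and -0.03 ± 0.09. For Gm10110 the values were -0.49 ± 0.06, -0.13 ± 0.06 and -0.08 ± 0.06, and for Pabpc4, a poly(A)-binding protein gene, -0.48 ± 0.06, -0.18 ± 0.06 and -0.20 ± 0.06. The pairs shared the sign of every value past the threshold in either gene. Gm13436 (-0.23, -0.06 and -0.26) and Rpl18 (-0.25, -0.14 and -0.23), and Gm8730 (-0.20, -0.13 and -0.16) and Rplp0 (-0.21, -0.13 and -0.21), did too. Whether reads of the pseudogene or of its parent moved cannot be told apart in these values.

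**Figure D5:**
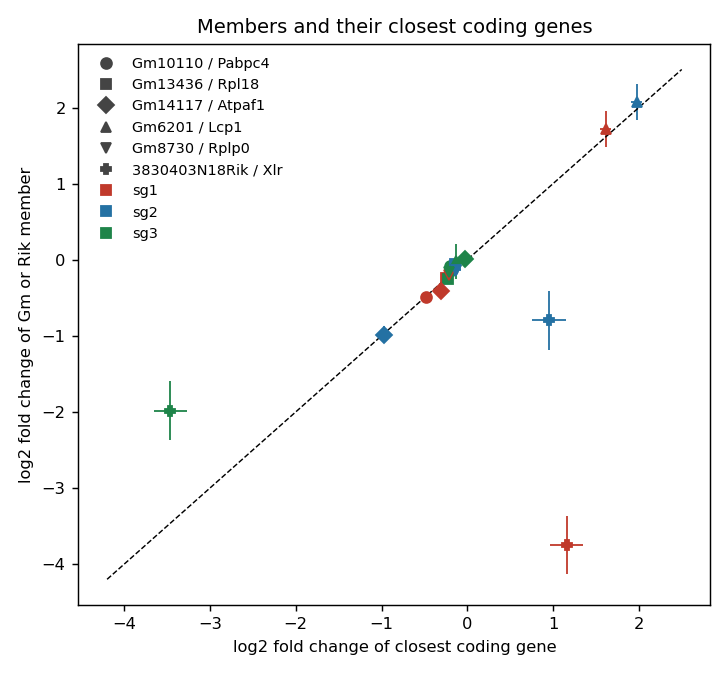
Log2 fold change against sgControl of 6 members (vertical axis) and of the closest coding gene in the table (horizontal axis), with standard errors, coloured by guide; the dashed line marks equal values. The 5 processed pseudogenes lie close to the line, and 3830403N18Rik departs from it, at -3.75 with sg1 where Xlr is at 1.16.

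The 4 members with the highest means were copies of this kind. Gm4735 read 9799, 10865 and 10533 in sgControl and 7618 to 9883 in the edited lines, and it fell with sg1 and sg3 (-0.17 ± 0.07 and -0.30 ± 0.07) but was not called with sg2 (-0.16 ± 0.07, although its adjusted p was 0.00696 with the replicate block). Its sg1 call was lost without sgControl replicate 2 (-0.13), sgControl replicate 3, sg1 replicate 1 (-0.16 each) or sg1 replicate 3 (-0.15). Gm4737 fell with sg1, from 5172, 5353 and 4872 to 4494, 4466 and 4077 (-0.24 ± 0.06, limma adjusted p = 0.00112), and read -0.10 ± 0.06 and -0.12 ± 0.06 with sg2 and sg3. With the replicate block the sg2 value of Gm4737 had an adjusted p of 0.0464. Gm8730 fell from 5039.5, 5166 and 4937 to 4231, 4583 and 4404 with sg1, 4455, 4609 and 4744 with sg2 and 4178, 4741 and 4656 with sg3 (limma adjusted p = 0.00262, 0.0418 and 0.0184), all edited libraries being below the controls, although the sg2 and sg3 calls were lost without single libraries (-0.11 to -0.13 and -0.10 to -0.14). Gm10110 fell with sg1 from 3301, 3632 and 3182 to 2435, 2582 and 2206 (limma adjusted p = 1.25e-06), and its guides differed (1.36e-05). With sg2 its adjusted p was 0.0192 with the replicate block, against 0.0699 without.

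Among the other pseudogenes, Gm10039, Gm12397, Gm15421 and Gm9843 fell with all 3 guides. Gm9843, identical to Fau over 402 bases, read 3203, 3156 and 3136 in sgControl, 2858, 2991 and 2652 with sg1, 2609, 2812 and 2778 with sg2 and 2253, 2327 and 2516 with sg3. It was lowest with sg3 (-0.16 ± 0.06, -0.21 ± 0.06 and -0.42 ± 0.06, limma adjusted p = 0.0126, 0.00438 and 8.30e-06), the guides differed (0.00097), and its sg1 value was -0.11 and not called without sg1 replicate 3. Gm15421 read 224, 248 and 219 in sgControl, 169, 167 and 198 with sg1, 183, 175 and 157 with sg2 and 142, 146 and 191 with sg3 (-0.37 ± 0.13, -0.42 ± 0.13 and -0.54 ± 0.13). Gm12397 read 96.5, 87.4 and 86.8 in sgControl, 54.2, 66.04 and 60.9 with sg1, 76.2, 68.3 and 65.3 with sg2 and 70.6, 63.2 and 66.4 with sg3. For Gm12397 the edited libraries were all below the controls (-0.57 ± 0.15, -0.36 ± 0.15 and -0.43 ± 0.15), and the sg2 call was lost without sgControl replicate 1, 2 or 3, sg1 replicate 3 or sg2 replicate 2 or 3 (-0.32 to -0.39) and the sg3 call without sgControl replicate 1 (-0.38).

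Gm10039, a copy of the ATP synthase subunit gene Atp5g1, read 596, 619 and 546 in sgControl, 491, 413 and 506 with sg1, 497, 472 and 519.6 with sg2 and 473, 521 and 518 with sg3. Its edited libraries were below the controls (-0.32 ± 0.08, -0.24 ± 0.08 and -0.22 ± 0.08), and the sg2 and sg3 calls were lost without single libraries, with values of -0.20 to -0.23 and -0.17 to -0.24. Gm16372 went the other way: it read 22.7, 19.2 and 19.1 in sgControl, 34.2, 36.9 and 28.8 with sg1, 27.3, 44.98 and 46.4 with sg2 and 40.9, 44.4 and 34.7 with sg3. All its edited libraries were above the controls (0.68 ± 0.24, 0.89 ± 0.24 and 0.94 ± 0.24, limma adjusted p = 0.0133, 0.00482 and 0.00349), and the sg1 value was not called when scaled to the table total (0.48). Its closest gene, Arpc5, a subunit gene of the actin-nucleating Arp2/3 complex, was not analysed here. Gm13050, Gm13436, Gm1840, Gm4149, Gm4294 and Gm9825 lay between -0.53 and -0.06 in all comparisons, and with the replicate block the sg2 values of Gm13050 and Gm9825 came past the threshold (adjusted p = 0.0180 and 0.0411).

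The edited lines were also compared among themselves, without the control means but with the spread of all 12 libraries. The edited libraries were part of the contrast on which the table was selected. The 3 guides differed for 39 of the 68 members (57.4%), beside 75.3% of the table. By class, 15 of 19 ordinary coding members, 1 of 5 readthrough models, 15 of 21 long noncoding members, 7 of 16 pseudogenes and 1 of 7 TEC members (Gm49410) differed. The 7 sense intronic or TEC members in introns, which are counted in these classes, included 0 that differed. Between sg3 and sg2, 13 members were higher and 11 lower in sg3, beside 13.4% and 17.1% of the table. The largest differences among those called were those of Gm2694 (-2.92 ± 0.22), 3110039I08Rik (-2.35 ± 0.18) and Gm14139 (-2.15 ± 0.24) in the lower direction, and of 3830417A13Rik (2.12 ± 0.30), Gm15910 (1.73 ± 0.26) and Gm47015 (1.35 ± 0.23) in the higher.

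As a comparison list, 51 named noncoding genes were looked up, of which 4 were in the table. Malat1, an abundant nuclear RNA, rose with all guides (0.49 ± 0.12, 0.29 ± 0.12 and 0.51 ± 0.12). Airn, the antisense transcript of the imprinted Igf2r region, rose with sg2 and sg3 (0.60 ± 0.19 and 0.70 ± 0.19) and read 0.39 ± 0.19 with sg1. Pvt1, the neighbour of Myc, rose with sg1 and sg3 (0.69 ± 0.15 and 0.43 ± 0.15) and read 0.35 ± 0.15 with sg2. Rpph1, the RNA of ribonuclease P, fell with sg1 and sg3 (-0.39 ± 0.12 and -0.40 ± 0.12) and read -0.17 ± 0.12 with sg2.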

How the data were processed

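RNA-seq values of 12 libraries in 4 groups of 3 were used, grouped by the labels. The deposited signal values are estimated read counts per gene that the authors divided by 1 size factor per library. The submitters' processing notes name STAR 2.7.8a, Partek and DESeq2, and the study's methods name median-ratio normalization. The mouse build, the annotation and the strand setting of counting are not given in the sources used here, and the libraries were stranded total RNA. The labels' treatment text describes shRNA and not these guides. Between 79.0% and 84.6% of low values per library were whole numbers of reads within 0.05 after division by the library's step, a share short of nearly all, so the values were not turned back into reads and no count model was run. Library depth is unknown. Within groups, no library repeated another within sampling noise, and pairs across groups were not compared.

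Gene identifiers were matched to GENCODE M21 for symbols, classes, positions and transcript sequences, and to RefSeq for promoters and microRNAs. Transcripts were aligned to coding transcripts with blastn 2.17.0. A linear model was fitted with limma 3.58.1 (R 4.3.3) to log2(value + 1), with a trended prior and robust estimates, over all 12 libraries and all genes of the table. The pseudocount makes fold changes of low genes too small. P-values were adjusted by Benjamini-Hochberg over all genes, with a threshold of 0.05. For folds against a group at or under 3 estimated reads in each library (Gm10401 in sgControl, Gm49410 with sg2 and Gm49361 with sg3), that group was set to this floor, and such bounds cover counting error only. The fit and its medians used the values as deposited. Alternatives comprised 3 scalings, 2 pseudocounts, 2 filters, the replicate block, a prior without trend, and each library left out. Leaving out sg2 replicate 2 and sg3 replicate 1 together was chosen after seeing the data.

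The labels number the dishes of each group. Deviations from group means of same-numbered libraries correlated at 0.199 to 0.238 between sgControl and sg1 and at 0.122 to 0.164 between sgControl and sg2, so the numbers were taken to pair these groups. For sgControl and sg3 the values were -0.0786 to -0.00383, and they did not pair. Between edited lines they were -0.0317 to 0.324 (sg1 and sg2), -0.0221 to 0.192 (sg1 and sg3) and -0.0636 to 0.165 (sg2 and sg3). The main fit did not use the numbers, which entered only as the replicate block.

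The members and lists were chosen with earlier results of these data known. Library values were given for members past the threshold in 1 direction with all 3 guides, a naming rule only since the guides share controls, for those past it in opposite directions with 2 guides, for the 6 smallest p among the guides and for the 4 highest means. Other members were named after their values were seen. The table has no columns of fold changes or p-values.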

Additional observations from a re-analysis of the deposited data

Results flagged for a closer look

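The 3 guides differed beyond the spread between dishes for 39.0 members by the limma test of equality, which compares the edited lines with a spread estimated over all libraries, controls included. Each guide is 1 line, so differences between guides and between lines cannot be told apart.

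Members that moved in opposite directions with different guides had limma adjusted p of 4.83e-11 for 3110039I08Rik, 1.27e-10 for 5031439G07Rik, 2.67e-10 for Gm2694, 2.77e-10 for 1110002E22Rik and 6.61e-08 for 2810021J22Rik.

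Members that moved in 1 direction but to unequal extents had limma adjusted p of 5.74e-09 (Gm14230), 1.28e-05 (3830417A13Rik), 0.000614 (Gm14412), 0.00097 (Gm9843), 0.0024 (Gm27029), 0.0092 (Gm13613) and 0.0303 (Gm49410).

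Members that stood apart in 1 or 2 lines had limma adjusted p of 7.24e-08 (Gm2115), 1.08e-07 (Gm14418), 5.13e-07 (Gm6201), 6.59e-07 (G930009F23Rik), 7.41e-07 (Gm14117), 1.79e-06 (Gm15910), 4.78e-06 (Gm43305), 7.99e-06 (3830403N18Rik), 1.36e-05 (Gm10110) and 0.00012 (Gm47015). For Gm6201, Gm14117 and Gm10110 the closest coding gene in the table also differed among the guides, with limma adjusted p of 8.57e-15 for Lcp1, 1.05e-07 for Atpaf1 and 0.000303 for Pabpc4.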

How the results depend on the processing

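No called log2 fold change of a member changed sign under any alternative. Of the comparisons of single members under alternatives, 4143 kept their side of the threshold, 178 were no longer past it and 95 came past it. The first count includes values called in neither fit, whose sign was free to change. Leaving out 1 library at a time gave 51 to 59 members called with sg1 (57 with all libraries), 37 to 46 with sg2 (43), 37 to 52 with sg3 (51), 67 to 68 for the mean of the guides (68), 19 to 24 for sg3 against sg2 (24) and 37 to 42 for the equality of the guides (39). The lowest sg3 count was that without sg3 replicate 1. Over all alternatives the counts ranged over 40 to 59, 29 to 55, 35 to 54, 48 to 68, 17 to 26 and 30 to 50 in the same order, and the lowest, other than that for sg3 against sg2, came with a filter at a mean of 50, which left 48 members to test. With the replicate block, 25 members rose and 31 fell with sg1, 25 and 25 with sg2, and 24 and 30 with sg3. The block moved the count of pseudogenes that fell with sg2 from 7 to 11, and brought Gm4737, Gm1840 and Gm1673 past the threshold with sg3 (adjusted p = 0.0210, 0.0301 and 0.0429), whose dishes did not pair. Replicates were dishes of 1 line, and members at a few reads are limited by depth.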
